A study of Mus musculus with 12 samples.

Results

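The interferon response genes described here are 42 mouse genes of the interferon pathway: receptors and kinases, transcription factors, nucleic acid sensors, antiviral effectors, the ISG15 system, interferon-inducible GTPases and Tap1. They were listed by name, with no threshold on a measured value but with earlier results of these data known. Their chromatin was read through accessible regions. A region was given to a gene when it overlapped the protein-coding RefSeq body of that gene or, failing that, when that body was the nearest within 100000 bp. The rule gave 408 of the 188262 regions of the series to 40 of the 42 genes, and all 408 passed the filter on low counts. Mx1 and Mx2 are listed in RefSeq GRCm38.p6 as transcribed pseudogenes, so the rule gave them no region. Irf2 held 59 of the regions and Jak1 held 52, while Irf9, Ifit1 and Isg15 held 1 each. Of the 408 regions, 49 lay within 1 kb of a start site of their own gene, 14 lay within 1 kb of a gene end where no start site was listed, 160 lay elsewhere in a gene body and 185 lay outside it. A region carries the name of its nearest gene, which it need not control.

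The assay was ATAC-seq, which cuts and tags open DNA with a transposase, in 12 libraries, 3 in each of 4 groups. KO LT-HSC and KO MPP came from male mice with a deleted Phf6 allele and 1 copy of a tamoxifen-activated Cre at the Rosa26 locus (Phf6−/Y Rosa26+/Cre-ERT2). WT LT-HSC and WT MPP came from males that carried a floxed, undeleted Phf6 allele without any Cre (genotype Phf6f/Y Rosa26+/+). LT-HSC are long-term haematopoietic stem cells, and MPP are the multipotent progenitors they give rise to. Nuclei came from 20000 sorted LT-HSC, 8 weeks after tamoxifen, which is named for both genotypes. Whether that number is per mouse is not stated. The sources used here give neither the age of the mice nor how the MPP were prepared. Cre-ERT2 came with the KO genotype alone, so its effect and that of Phf6 loss cannot be told apart. Replicates are individual mice on the wording given for LT-HSC. For MPP no such wording is given, so their p-values measure the spread between samples that may share a source.

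Interferons are cytokines made on infection. Type I interferons bind the receptor chains IFNAR1 and IFNAR2, whose kinases TYK2 and JAK1 phosphorylate STAT2. It joins IRF9 in a complex that binds the interferon-stimulated response element (ISRE) of target genes. Type II interferon binds IFNGR1 and IFNGR2, and many of its target genes carry gamma-activated sites (GAS). In mouse bone marrow, interferon is known to push dormant stem cells into cycle, and lasting exposure exhausts them. Phf6 is an X-linked gene for a chromatin-associated protein of the nucleus.

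Total counts ran from 22665988 to 48547234 per library. Levels below are TMM-scaled CPM, that is, counts relative to the library total. Fold changes are log2 with their SE, a region passed when its adjusted p was under 0.05, and means carry the SD over 3 libraries. In such bulk samples, fewer cells with an open region and less opening per cell cannot be told apart. The share of counts in regions near gene ends was 39.2 to 39.6% in KO LT-HSC against 37.8 to 38.9% in WT LT-HSC. It was 40.97 to 41.44% in KO MPP against 39.16 to 41.02% in WT MPP, where the groups overlap. Summed CPM of 6 LT-HSC marker genes was 868 to 870 in KO LT-HSC against 799 to 819 in WT LT-HSC, and 516 to 530 in KO MPP against 483 to 527 in WT MPP. Most of the LT-HSC difference lay at Mecom, with 414.5 CPM in KO and 367.3 CPM in WT, and at Procr (90.4 and 80.9 CPM). Slamf1 (65.1 and 65.3 CPM), Hlf (189.7 and 189.0 CPM), Fgd5 (89.9 and 88.5 CPM) and Hoxb5 (19.2 and 19.9 CPM) were nearly equal. The 4 MPP marker genes summed to 329 to 332 CPM in KO LT-HSC against 305 to 317 CPM in WT LT-HSC, and to 532 to 538 CPM in KO MPP against 523 to 529 CPM in WT MPP. So the LT-HSC list was higher in LT-HSC and the MPP list in MPP. Regions of Siglech and Ccr9, markers of plasmacytoid dendritic cells, which make type I interferon, summed to 27.4 to 28.9 CPM in KO LT-HSC against 28.9 to 34.4 CPM in WT LT-HSC, and to 74.3 to 78.8 CPM in KO MPP against 84.5 to 88.1 CPM in WT MPP. Klk1, the last gene of that list, had no region. Some marker lists of other blood and vessel cells moved as well. Endothelial markers (Cdh5, Pecam1, Tek) summed to 187 to 199 CPM in KO LT-HSC against 172 to 180 CPM in WT LT-HSC, and to 175 to 182 CPM in KO MPP against 169 to 176 CPM in WT MPP. In MPP these sums overlap and the genes disagree. Cdh5 averaged 56.2 CPM in KO MPP against 65.2 CPM in WT MPP, while Pecam1 (114.5 against 101.6 CPM) and Tek (7.13 against 6.50 CPM) were higher in KO MPP. Klf1, an erythroid transcription factor, and Hbb-bt, a beta globin, summed to 67.2 to 70.4 CPM in KO LT-HSC against 57.5 to 66.2 CPM in WT LT-HSC, and to 61.6 to 62.6 CPM in KO MPP against 49.1 to 55.4 CPM in WT MPP. The KO libraries were above the WT libraries in both populations, as they were for the summed member regions. This pair was chosen from the erythroid markers after the values were seen. T cell markers, of which Cd3g had no region, summed to 51.7 to 55.3 CPM in KO LT-HSC against 45.9 to 50.5 CPM in WT LT-HSC, and to 61.3 to 63.5 CPM in KO MPP against 64.8 to 65.4 CPM in WT MPP. B cell, NK cell and macrophage lists overlapped between KO and WT, except the B cell list in MPP, at 157 to 162 CPM in KO MPP against 164 to 167 CPM in WT MPP. The part of such cells in the results was not tested. None of the 6 regions over the Phf6 body passed as lower in KO, and 1 was higher in KO MPP (2.53, 2.34 and 2.67 CPM, against 1.48, 1.40 and 1.49 CPM in WT MPP). The sources used here do not name the deleted exons, so these regions do not check the genotype labels.

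The sequences that follow show the element through which the classic targets are read. Among the 34 members with a promoter in the RefSeq GRCm38.p6 table (250 bases before to 50 after a start), 15 (44.1%) held the ISRE core (GAAA, NN and GAAA in a row, where N is any base) on either strand, against 689 of 17492 genes (3.94%). The GAS core TTCNNNGAA, searched in the same way, was found in 12 members (35.3%) and in 8.92% of genes, and a match to either motif is a description of letters, not of a bound site. Dhx58, Iigp1, Ly6e, Parp14, Usp18, Zbp1, Mx1 and Mx2 had no entry. Windows around the cores are given for 7 members, 5′ to 3′ on the strand of the gene, with the bases of ISRE cores on either strand in capitals. Overlapping cores run together.
Isg15 (chr4:156200855-156200916, minus strand): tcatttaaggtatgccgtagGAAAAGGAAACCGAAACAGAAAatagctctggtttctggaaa
Oas1a (chr5:120907526-120907565, minus strand): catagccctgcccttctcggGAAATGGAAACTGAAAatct
Bst2 (chr8:71537567-71537622, minus strand): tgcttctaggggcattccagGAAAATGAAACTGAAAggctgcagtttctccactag
Irgm1 (chr11:48871421-48871470, minus strand): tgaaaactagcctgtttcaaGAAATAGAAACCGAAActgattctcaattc
Igtp (chr11:58199502-58199551, plus strand): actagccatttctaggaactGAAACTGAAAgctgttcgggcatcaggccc
Irgm2 (chr11:58214893-58214942, plus strand): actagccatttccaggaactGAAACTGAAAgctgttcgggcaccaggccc
Gbp2 (chr3:142620584-142620633, plus strand): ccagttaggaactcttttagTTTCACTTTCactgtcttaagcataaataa
Isg15 holds 3 overlapping cores in this window, Oas1a, Bst2 and Irgm1 hold 2 and the others hold 1. The windows of Igtp and Irgm2, neighbouring GTPase genes, share 48 of 50 bases, and their promoters 184 of 270 aligned bases, so reads from the pair may be hard to part where they are alike. Irf7 is shown for contrast, with the 250 bases before its start and no ISRE core.
Irf7 (chr7:141266425-141266674, minus strand): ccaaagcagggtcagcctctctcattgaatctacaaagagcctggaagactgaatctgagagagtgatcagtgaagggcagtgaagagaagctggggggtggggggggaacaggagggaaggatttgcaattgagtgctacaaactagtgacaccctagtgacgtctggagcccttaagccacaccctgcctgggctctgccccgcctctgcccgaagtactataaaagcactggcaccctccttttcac
Each of these 7 windows lies wholly inside an accessible region. The regions over the windows of Isg15, Oas1a, Bst2, Irgm1, Igtp and Gbp2 were higher in KO MPP than in WT MPP, as described below, and the region over the Irgm2 window did not pass the test (log2 fold 0.20 ± 0.08, adjusted p = 0.101). Over all 13 members with a core before the start, 12 windows lay inside a region, and 6 of these 12 regions were higher in KO MPP and 2 (Bst2 and Gbp2) in KO LT-HSC, beside 13.7% of all regions near gene starts in MPP and 9.72% in LT-HSC. With 1 start-site region per gene, 6 of 15 members with a core and 5 of 19 without were higher in KO MPP. In KO LT-HSC, 1 of 15 with and 6 of 19 without were higher. The region counted need not hold the core: at Gbp3 it does not, and the Gbp2 region over the core was not the one counted. So these counts do not show whether calls go with the core.

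In LT-HSC, regions of interferon response genes were more often higher than lower in KO. At an adjusted p under 0.05, 34 of 408 regions were higher in KO LT-HSC than in WT LT-HSC, in 19 genes, and 1 was lower, at Oasl2. Over all 186373 tested regions, 3.28% were higher and 1.47% lower. The processing moved this split: of all calls in LT-HSC, 69.0% were higher in KO, against 55.2% with a loess offset and 45.3% with total-count scaling. With DESeq2, another test that left 72267 regions without an adjusted p, 81.2% were higher. Member regions stayed mostly higher, with 16 higher and 4 lower under the loess offset and 14 higher and 3 lower under total counts. The log2 fold change was positive at 260 of the 408 regions (63.7%), against 49.8% of all regions, with a median of 0.08 against -0.0013 for all regions. Every KO library stood above every WT library at 84 member regions, and every KO library stood below at 18, where the shares over all regions were 13.4% and 10.8%. Summed over the 408 regions, accessibility was 2769 to 2805 CPM in KO LT-HSC against 2559 to 2629 CPM in WT LT-HSC. The fold changes were small: those of the 34 higher regions ran from 0.18 to 0.87 on the log2 scale.

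In MPP, 42 of the 408 regions were higher in KO MPP than in WT MPP, in 28 genes, and 3 were lower, at Ifnar2, Irf2 and Parp14. Over all tested regions, 5.08% were higher and 3.61% lower, so 58.5% of the calls were higher, against 47.8% with total-count scaling. Positive log2 fold changes were found at 265 regions (65.0%), against 48.7% of all regions, with a median of 0.08 against -0.01. Every KO MPP library stood above every WT MPP library at 98 member regions and below at 25, where the shares over all regions were 14.3% and 13.7%. The higher regions had log2 fold changes of 0.24 to 1.02, and the summed accessibility was 2946 to 2950 CPM in KO MPP against 2713 to 2876 CPM in WT MPP. The LT-HSC and MPP comparisons share no library, but they share the estimate of the spread and are not fully independent. The labels do not say whether they also share mice. In both comparisons, 16 member regions passed, all higher in KO. These are 45.7% of the LT-HSC calls and 35.6% of the MPP calls, against 40.8% and 22.3% for the 3609 regions of the whole table called in both.

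Regions near gene starts carried a larger share of higher calls, for members and for all genes. Within 1 kb of a gene start, 8 of 50 member regions were higher in KO LT-HSC, against 9.72% of 17774 such regions, and 15 of 50 were higher in KO MPP, against 13.7%. None of the 50 was lower in either population, where the shares over all such regions were 0.895% in LT-HSC and 2.19% in MPP. Away from starts, 26 of 358 member regions were higher in KO LT-HSC and 1 lower, against 2.6% and 1.53% of 168599 regions. In KO MPP, 27 were higher and 3 lower, against 4.17% and 3.76%. The share of counts near gene ends, given above, was larger in every KO LT-HSC library than in any WT LT-HSC library. In MPP the groups overlapped. Whether that share accounts for these calls was not tested. With that share as a covariate, 10 member regions were higher in LT-HSC and 17 in MPP. Calls fell over all regions too. There, 1864 of 8845 calls were left in LT-HSC, 75.0% of them higher, and 5612 of 16207 in MPP, 58.5% of them higher. All 34 and 42 originally higher regions kept a positive fold change. They had been chosen as higher in these same libraries, so the kept sign is no further support.

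**Figure D1:**
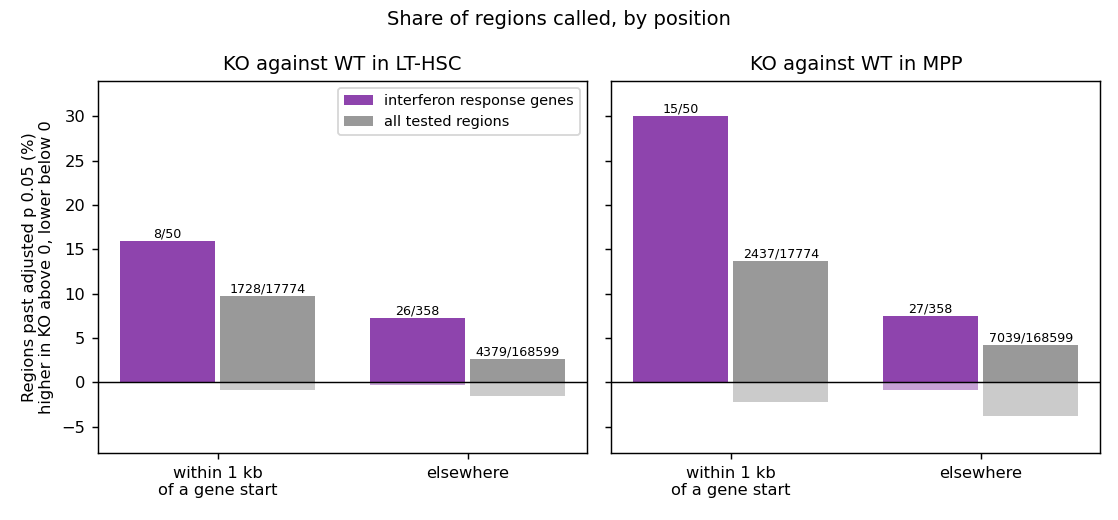
Percent of regions past an adjusted p of 0.05 in KO against WT, higher in KO above 0 and lower below 0, within 1 kb of a gene start and elsewhere, for interferon response genes and for all tested regions; numbers give regions higher over regions tested. Of 50 member regions near starts, 15 were higher in KO MPP, against 2437 of 17774 of all such regions.

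Single libraries moved these counts. Among LT-HSC, 14 member regions were higher without KO replicate 1, 14 without KO replicate 2, 22 without KO replicate 3, 19 without WT replicate 1, 21 without WT replicate 2 and 23 without WT replicate 3. Among MPP, 22 were higher without KO replicate 2, 16 without KO replicate 3 and 26 without WT replicate 1, and up to 42 without the others. The loss was not particular to members. Over all regions, 8845 calls in LT-HSC became 3408 to 6604, and 16207 in MPP became 6375 to 14170. Calls kept with every library left out in turn numbered 7 of 35 in LT-HSC and 13 of 45 in MPP, and the number of these 6 refits that kept a call is given below as kept in n of 6. Where leaving out a library or another setting moved the fold of a call by over 1.5 times, that fold follows. A call kept under every alternative tried passed in every refit that gave it an adjusted p. Assigning only regions within 1 kb of a gene body is no refit and is not counted there, though it drops distal regions. Of the 35 calls in LT-HSC, 27 were lost with the gene-end share as covariate, 20 with total counts, 18 with the loess offset, 11 with a filter of 1 CPM in 3 libraries, 9 with the compared groups alone and 5 with DESeq2. The calls kept with the covariate were 3 at Irf2, 2 at Jak1 and 1 each at Samhd1, Ifi44 and Ifi47. Of the 45 calls in MPP, 33 were lost with the covariate, 9 with DESeq2, 8 with total counts, 8 with the loess offset, 4 with the compared groups alone and 1 with the 1 CPM filter. Those kept with the covariate were 2 at Irf2, 2 at Irgm1 and 1 each at Bst2, Oasl2, Samhd1, Gbp2, Irgm2, Ifnar1, Jak1 and Irf7, while the calls at the starts of Irf3, Tap1, Isg15 and Ifi35 were lost.

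**Figure D2:**
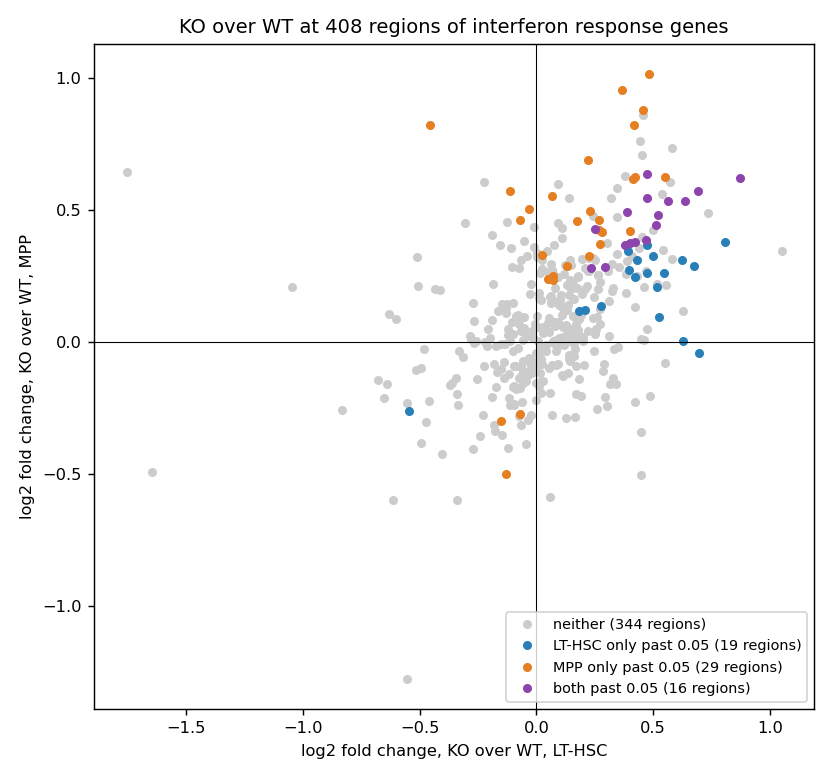
Log2 fold change of KO over WT in LT-HSC (horizontal) and in MPP (vertical) for the 408 member regions, coloured by whether the adjusted p was under 0.05. The 16 regions past the threshold in both populations all lie above 0 on both axes.

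The receptor and kinase genes held 138 regions: 17 at Ifnar1, 20 at Ifnar2, 28 at Ifngr1, 10 at Ifngr2, 52 at Jak1 and 11 at Tyk2. Of these, 8 were higher in KO LT-HSC and none lower, while 6 were higher and 1 lower in KO MPP. The higher calls are 5.80% of these regions in LT-HSC, beside 3.28% of all regions, and 4.35% in MPP, under the 5.08% of all regions, so in MPP the group did not exceed the background. Ifngr1, the ligand-binding chain of the type II receptor, had the highest CPM of all leading regions, uncorrected for region length, where the leading region of a gene is the one with the highest mean CPM. At its start site (chr10:19591671-19592141) it had 89.4, 84.9 and 90.1 CPM in KO LT-HSC, against 76.5, 78.8 and 77.8 CPM in WT LT-HSC. The KO libraries all stood above the WT libraries (log2 fold 0.18 ± 0.05, adjusted p = 0.0428, kept in 0 of 6). For Ifngr1, the LT-HSC fold of 0.18 became 0.12 (adjusted p = 0.344) with the gene-end share as covariate and 0.07 (adjusted p = 0.391) with the loess offset. In MPP the same region had 100.3, 92.8 and 94.3 CPM in KO MPP, against 89.3, 91.8 and 83.4 CPM in WT MPP, again with every KO library above every WT library, and did not pass (log2 fold 0.12 ± 0.05, adjusted p = 0.162). On the start side of Ifngr1, a region 21315 bp from the gene (chr10:19570172-19570634) had 6.03, 5.52 and 6.32 CPM in KO LT-HSC, against 4.30, 3.96 and 3.94 CPM in WT LT-HSC. The groups were apart (log2 fold 0.55 ± 0.12, adjusted p = 0.00931, kept in 6 of 6). Nearer the gene, at 13543 bp, a further region (chr10:19577561-19578406) was higher in KO in LT-HSC (log2 fold 0.51 ± 0.13, adjusted p = 0.0225, kept in 3 of 6) and in MPP (log2 fold 0.44 ± 0.14, adjusted p = 0.0394, kept in 2 of 6). For Ifngr1, the MPP fold of 0.44 became 0.28 (adjusted p = 0.319) without KO replicate 2.

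The start sites of the type I receptor did not pass the test. Ifnar1 averaged 51.4 ± 1.14 CPM in KO LT-HSC and 51.5 ± 1.30 CPM in WT LT-HSC at its start, and 61.4 ± 2.71 CPM in KO MPP and 63.0 ± 4.51 CPM in WT MPP (SD, n = 3 each). The log2 fold was -0.00 ± 0.06 (adjusted p = 0.989) in LT-HSC and -0.04 ± 0.06 (adjusted p = 0.716) in MPP. A distal region of Ifnar1, 23421 bp outside the gene (chr16:91461210-91461611), did differ. It had 4.90, 4.99 and 4.07 CPM in KO MPP, against 3.13, 2.88 and 2.94 CPM in WT MPP, so all KO libraries were above all WT libraries (log2 fold 0.64 ± 0.13, adjusted p = 0.00239, kept in 6 of 6, kept under every alternative tried). In LT-HSC it had 3.55, 3.93 and 3.38 CPM in KO LT-HSC, against 2.92, 2.42 and 2.49 CPM in WT LT-HSC (log2 fold 0.47 ± 0.14, adjusted p = 0.0468, kept in 1 of 6). A nearer distal Ifnar1 region (chr16:91470278-91470835) was higher in KO LT-HSC (log2 fold 0.50 ± 0.14, adjusted p = 0.0407, kept in 1 of 6). Ifnar2, the other type I chain, had its leading region outside the gene with 36.6 ± 1.39 CPM in KO LT-HSC and 39.3 ± 1.01 CPM in WT LT-HSC, and 58.0 ± 4.31 CPM in KO MPP and 65.0 ± 4.76 CPM in WT MPP. Neither comparison passed there (log2 fold -0.10 ± 0.07, adjusted p = 0.4 in LT-HSC and log2 fold -0.17 ± 0.06, adjusted p = 0.0901 in MPP). Of its other regions, 1 (chr16:91355171-91355596) was lower in KO MPP, with 36.2, 31.2 and 29.2 CPM in KO MPP, against 36.9, 44.1 and 34.9 CPM in WT MPP and groups that overlap (log2 fold -0.27 ± 0.08, adjusted p = 0.0342, kept in 3 of 6). For Ifnar2, the MPP fold of -0.27 became -0.16 (adjusted p = 0.258) without WT replicate 2. A weaker one (chr16:91347455-91347914) was higher in KO MPP (log2 fold 0.57 ± 0.18, adjusted p = 0.0463, kept in 0 of 6). Ifngr2, the signalling chain of the type II receptor, averaged 14.1 ± 1.03 CPM in KO LT-HSC and 12.3 ± 2.60 CPM in WT LT-HSC, and 18.9 ± 1.11 CPM in KO MPP and 17.5 ± 1.32 CPM in WT MPP at its leading region, which passed in neither population (adjusted p = 0.316 in LT-HSC and 0.489 in MPP).

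Jak1, the kinase shared by both receptor types, averaged 43.3 ± 1.92 CPM in KO LT-HSC and 43.2 ± 1.15 CPM in WT LT-HSC, and 50.2 ± 1.224 CPM in KO MPP and 48.1 ± 1.498 CPM in WT MPP at its start site, with log2 folds of 0.00 ± 0.06 (adjusted p = 0.975) in LT-HSC and 0.06 ± 0.06 (adjusted p = 0.573) in MPP. Of the 52 Jak1 regions, 3 were higher in KO in each population, beside 3.28% of all regions in LT-HSC and 5.08% in MPP. In MPP that is near the background. Inside the gene, 5 regions passed in 1 or both populations, all higher in KO. The one 72576 bp from the start (chr4:101192212-101192647) had 6.14, 6.51 and 9.08 CPM in KO LT-HSC, against 5.10, 4.24 and 6.08 CPM in WT LT-HSC (log2 fold 0.47 ± 0.14, adjusted p = 0.0471, kept in 2 of 6). For Jak1, the LT-HSC fold of 0.47 became 0.73 (adjusted p = 0.0311) with the gene-end share as covariate and 0.30 (adjusted p = 0.286) without KO replicate 3. In MPP it had 7.63, 8.37 and 9.51 CPM in KO MPP, against 5.39, 5.40 and 6.93 CPM in WT MPP (log2 fold 0.55 ± 0.13, adjusted p = 0.00961, kept in 4 of 6). The regions chr4:101249898-101250320 and chr4:101254638-101255309 were higher in KO LT-HSC, by log2 folds of 0.81 ± 0.20 (adjusted p = 0.0181, kept in 2 of 6) and 0.62 ± 0.16 (adjusted p = 0.0201, kept in 3 of 6). The regions chr4:101216972-101217373 and chr4:101260642-101261182 were higher in KO MPP, by 0.88 ± 0.26 (adjusted p = 0.0282, kept in 2 of 6) and 0.42 ± 0.13 (adjusted p = 0.0388, kept in 2 of 6). Tyk2, the kinase of the type I receptor, averaged 48.6 ± 0.537 CPM in KO LT-HSC and 46.4 ± 2.08 CPM in WT LT-HSC, and 49.0 ± 1.71 CPM in KO MPP and 48.7 ± 1.64 CPM in WT MPP at its start, and none of its 11 regions passed in either KO comparison.

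The transcription factors held 97 regions: 59 at Irf2, 22 at Irf1, 9 at Irf5, 2 at Irf7, 2 at Irf3, 2 at Stat2 and 1 at Irf9. Of these, 8 were higher and none lower in KO LT-HSC, and 9 were higher and 1 lower in KO MPP. Higher calls are 8.25% in LT-HSC and 9.28% in MPP, beside 3.28% and 5.08% of all regions. Irf3, which is activated when nucleic acids are sensed, was higher at its start site (chr7:44997135-44997795) in both populations. It had 57.8, 51.9 and 58.5 CPM in KO LT-HSC, against 46.9, 48.5 and 41.6 CPM in WT LT-HSC (log2 fold 0.30 ± 0.07, adjusted p = 0.00857, kept in 5 of 6). For Irf3, the LT-HSC fold of 0.30 became 0.19 (adjusted p = 0.216) with the gene-end share as covariate and 0.20 (adjusted p = 0.051) with the loess offset. The MPP libraries had 49.7, 51.4 and 49.7 CPM in KO MPP, against 44.5, 40.9 and 38.3 CPM in WT MPP (log2 fold 0.29 ± 0.07, adjusted p = 0.00672, kept in 6 of 6). For Irf3, the MPP fold of 0.29 became 0.18 (adjusted p = 0.197) with the gene-end share as covariate. No KO library fell to the level of a WT library in either population. This region also overlaps Bcl2l12, which starts beside Irf3, so it cannot be given to either gene alone.

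Irf7, an inducible factor that amplifies type I interferon production, had 19.3, 17.2 and 19.9 CPM in KO MPP, against 15.0, 13.2 and 14.1 CPM in WT MPP at its start (chr7:141266273-141266696). The groups were apart, and the call was kept under every alternative tried (log2 fold 0.42 ± 0.08, adjusted p = 0.00186, kept in 6 of 6). In LT-HSC the same region had 13.1, 13.7 and 15.2 CPM in KO LT-HSC, against 11.6, 11.3 and 11.5 CPM in WT LT-HSC, also with the groups apart, and did not pass (log2 fold 0.28 ± 0.09, adjusted p = 0.0569). Irf9, the DNA-binding part of the complex that reads the ISRE, had 39.8, 38.5 and 37.5 CPM in KO LT-HSC, against 31.3, 34.4 and 34.6 CPM in WT LT-HSC at its start and only region (chr14:55603854-55604289). That difference passed in LT-HSC (log2 fold 0.21 ± 0.06, adjusted p = 0.0485, kept in 0 of 6). For Irf9, the LT-HSC fold of 0.21 became 0.12 (adjusted p = 0.27) with the loess offset. In MPP it had 40.8, 38.8 and 42.5 CPM in KO MPP, against 37.7, 37.5 and 36.9 CPM in WT MPP and did not pass (log2 fold 0.12 ± 0.06, adjusted p = 0.22). Stat2, the partner of IRF9, averaged 47.1 ± 1.81 CPM in KO LT-HSC and 45.8 ± 1.12 CPM in WT LT-HSC, and 44.3 ± 1.98 CPM in KO MPP and 44.6 ± 0.562 CPM in WT MPP, with log2 folds of 0.04 ± 0.06 (adjusted p = 0.764) in LT-HSC and -0.01 ± 0.06 (adjusted p = 0.929) in MPP.

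Irf2, a repressor of interferon targets that in mice is known to protect stem cells from interferon-driven exhaustion, held 3 of the 4 LT-HSC calls that were kept under every alternative tried. Its start site did not pass, with 33.1 ± 2.15 CPM in KO LT-HSC and 32.5 ± 1.25 CPM in WT LT-HSC, and 38.9 ± 1.26 CPM in KO MPP and 41.1 ± 2.59 CPM in WT MPP (log2 fold 0.03 ± 0.07, adjusted p = 0.873 in LT-HSC and log2 fold -0.08 ± 0.06, adjusted p = 0.465 in MPP). A region 4093 bp beyond the gene body (chr8:46851551-46852045) had 22.3, 21.2 and 23.9 CPM in KO LT-HSC, against 16.7, 16.4 and 17.8 CPM in WT LT-HSC (log2 fold 0.40 ± 0.08, adjusted p = 0.00187, kept in 6 of 6). In MPP it had 27.2, 31.1 and 28.5 CPM in KO MPP, against 21.2, 22.6 and 23.2 CPM in WT MPP (log2 fold 0.38 ± 0.07, adjusted p = 0.00136, kept in 6 of 6). A region inside the gene (chr8:46764943-46765396) had 22.05, 21.9 and 22.1 CPM in KO LT-HSC, against 16.6, 17.0 and 17.3 CPM in WT LT-HSC (log2 fold 0.38 ± 0.07, adjusted p = 0.00294, kept in 6 of 6). In MPP it had 23.3, 24.4 and 20.9 CPM in KO MPP, against 17.4, 18.2 and 17.5 CPM in WT MPP (log2 fold 0.37 ± 0.07, adjusted p = 0.00173, kept in 6 of 6). In both regions and both populations the KO libraries stood above the WT libraries, and the calls were kept under every alternative tried.

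Upstream of Irf2, a weakly accessible region 42664 bp away (chr8:46696065-46697081) had 1.98, 2.19 and 2.54 CPM in KO LT-HSC, against 1.18, 1.24 and 1.216 CPM in WT LT-HSC (log2 fold 0.87 ± 0.19, adjusted p = 0.00585, kept in 6 of 6), kept under every alternative in LT-HSC. In MPP it was also higher (log2 fold 0.62 ± 0.19, adjusted p = 0.0325, kept in 1 of 6) but was kept in 1 of 6. The region chr8:46859137-46859917, past the far side of the gene, was higher in KO in LT-HSC (log2 fold 0.42 ± 0.11, adjusted p = 0.0255, kept in 2 of 6) and MPP (log2 fold 0.38 ± 0.11, adjusted p = 0.0346, kept in 1 of 6). A region inside the gene (chr8:46755793-46756286) passed in LT-HSC (log2 fold 0.47 ± 0.14, adjusted p = 0.0479, kept in 0 of 6), and another 1257 bp from the start (chr8:46741002-46741448) in MPP (log2 fold 0.33 ± 0.09, adjusted p = 0.017, kept in 4 of 6). For Irf2, the LT-HSC fold of 0.47 became 0.30 (adjusted p = 0.277) without KO replicate 3. For Irf2, the MPP fold of 0.33 became 0.17 (adjusted p = 0.418) with the gene-end share as covariate and 0.22 (adjusted p = 0.105) without WT replicate 3. The 1 lower region of Irf2 (chr8:46818913-46819351) had 11.05, 11.3 and 9.76 CPM in KO MPP, against 12.6, 13.3 and 13.6 CPM in WT MPP (log2 fold -0.30 ± 0.09, adjusted p = 0.0368, kept in 0 of 6).

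Irf1, an activator that interferon itself induces, averaged 63.8 ± 3.55 CPM in KO LT-HSC and 62.2 ± 5.10 CPM in WT LT-HSC, and 54.7 ± 0.782 CPM in KO MPP and 52.6 ± 4.71 CPM in WT MPP at its leading region, and passed in neither (log2 fold 0.04 ± 0.07, adjusted p = 0.799 in LT-HSC and log2 fold 0.05 ± 0.07, adjusted p = 0.672 in MPP). A region 11590 bp outside Irf1 (chr11:53757984-53758424) had 3.06, 2.72 and 3.96 CPM in KO LT-HSC, against 1.98, 1.71 and 2.26 CPM in WT LT-HSC (log2 fold 0.69 ± 0.16, adjusted p = 0.0111, kept in 4 of 6). The MPP libraries of this region had 2.92, 3.53 and 3.42 CPM in KO MPP, against 3.58, 3.17 and 3.52 CPM in WT MPP (log2 fold -0.04 ± 0.14, adjusted p = 0.899). Another on the other side of the gene (chr11:53785378-53785933) was higher in KO MPP (log2 fold 0.62 ± 0.17, adjusted p = 0.0179, kept in 3 of 6). Irf5, which acts downstream of Toll-like receptors, averaged 11.7 ± 0.204 CPM in KO LT-HSC and 11.3 ± 1.03 CPM in WT LT-HSC, and 16.4 ± 0.417 CPM in KO MPP and 15.9 ± 0.856 CPM in WT MPP at its leading region, with adjusted p of 0.788 in LT-HSC and 0.82 in MPP. Another region in the gene (chr6:29527708-29528270) was higher in KO MPP (log2 fold 0.46 ± 0.15, adjusted p = 0.0447, kept in 2 of 6).

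Sensors and their regulators held 32 regions: 15 at Ifih1, 6 at Zbp1, 4 at Trim25, 5 at Dhx58 and 2 at Eif2ak2. Of these, 3 were higher in KO LT-HSC (9.38%) and 5 in KO MPP (15.6%), and none was lower. The shares of higher calls over all regions were 3.28% and 5.08%. Ifih1, which encodes the double-stranded RNA sensor MDA5, held 2 of the 3 calls in LT-HSC and 3 of the 5 in MPP. Its leading region at the start averaged 26.2 ± 0.570 CPM in KO LT-HSC and 27.2 ± 0.463 CPM in WT LT-HSC, and 24.1 ± 0.466 CPM in KO MPP and 25.3 ± 1.39 CPM in WT MPP, and passed in neither population. Inside the gene, the region chr2:62639835-62640288 had 7.32, 7.50 and 9.44 CPM in KO LT-HSC, against 5.42, 5.48 and 4.57 CPM in WT LT-HSC (log2 fold 0.64 ± 0.13, adjusted p = 0.00397, kept in 6 of 6). In MPP it had 1.98, 3.13 and 2.94 CPM in KO MPP, against 1.85, 1.98 and 1.83 CPM in WT MPP (log2 fold 0.53 ± 0.16, adjusted p = 0.0367, kept in 1 of 6). Every KO library was above every WT library in LT-HSC. The region chr2:62630417-62630866 was higher in KO LT-HSC (log2 fold 0.43 ± 0.12, adjusted p = 0.0365, kept in 1 of 6), while chr2:62618852-62619347 (log2 fold 0.69 ± 0.18, adjusted p = 0.0156, kept in 4 of 6) and chr2:62646600-62647001, beside the start (log2 fold 0.82 ± 0.21, adjusted p = 0.0134, kept in 4 of 6), were higher in KO MPP.

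Zbp1, a sensor of Z-form nucleic acids, had a region 22070 bp outside the gene (chr2:173183942-173184542) that was higher in KO in LT-HSC (log2 fold 0.52 ± 0.15, adjusted p = 0.0336, kept in 2 of 6) and in MPP (log2 fold 0.48 ± 0.15, adjusted p = 0.0447, kept in 1 of 6). For Zbp1, the LT-HSC fold of 0.52 became 0.26 (adjusted p = 0.543) with the gene-end share as covariate. For Zbp1, the MPP fold of 0.48 became 0.23 (adjusted p = 0.543) with the gene-end share as covariate. Trim25, a ubiquitin ligase that helps activate the sensor RIG-I, had 3.46, 4.37 and 4.45 CPM in KO MPP, against 3.13, 2.96 and 2.91 CPM in WT MPP at a region 930 bp from its start (chr11:89000333-89000799), with the groups apart (log2 fold 0.46 ± 0.13, adjusted p = 0.0247, kept in 2 of 6). No region passed for Dhx58, which encodes the RNA sensor LGP2, or for Eif2ak2, which encodes the kinase PKR. The leading region of Dhx58 averaged 12.2 ± 1.01 CPM in KO MPP and 10.7 ± 0.564 CPM in WT MPP (log2 fold 0.20 ± 0.09, adjusted p = 0.166). That of Eif2ak2, which also overlaps Gm26637, averaged 16.1 ± 0.345 CPM in KO MPP and 18.1 ± 1.20 CPM in WT MPP, with every KO library below every WT library in both populations (log2 fold -0.10 ± 0.08, adjusted p = 0.505 in LT-HSC, log2 fold -0.17 ± 0.08, adjusted p = 0.168 in MPP). The leading regions of Trim25 and Zbp1 did not pass either, at 36.3 ± 1.66 CPM in KO MPP and 34.7 ± 0.729 CPM in WT MPP for Trim25 and 17.9 ± 0.569 CPM in KO MPP and 17.9 ± 1.10 CPM in WT MPP for Zbp1.

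**Figure D3:**
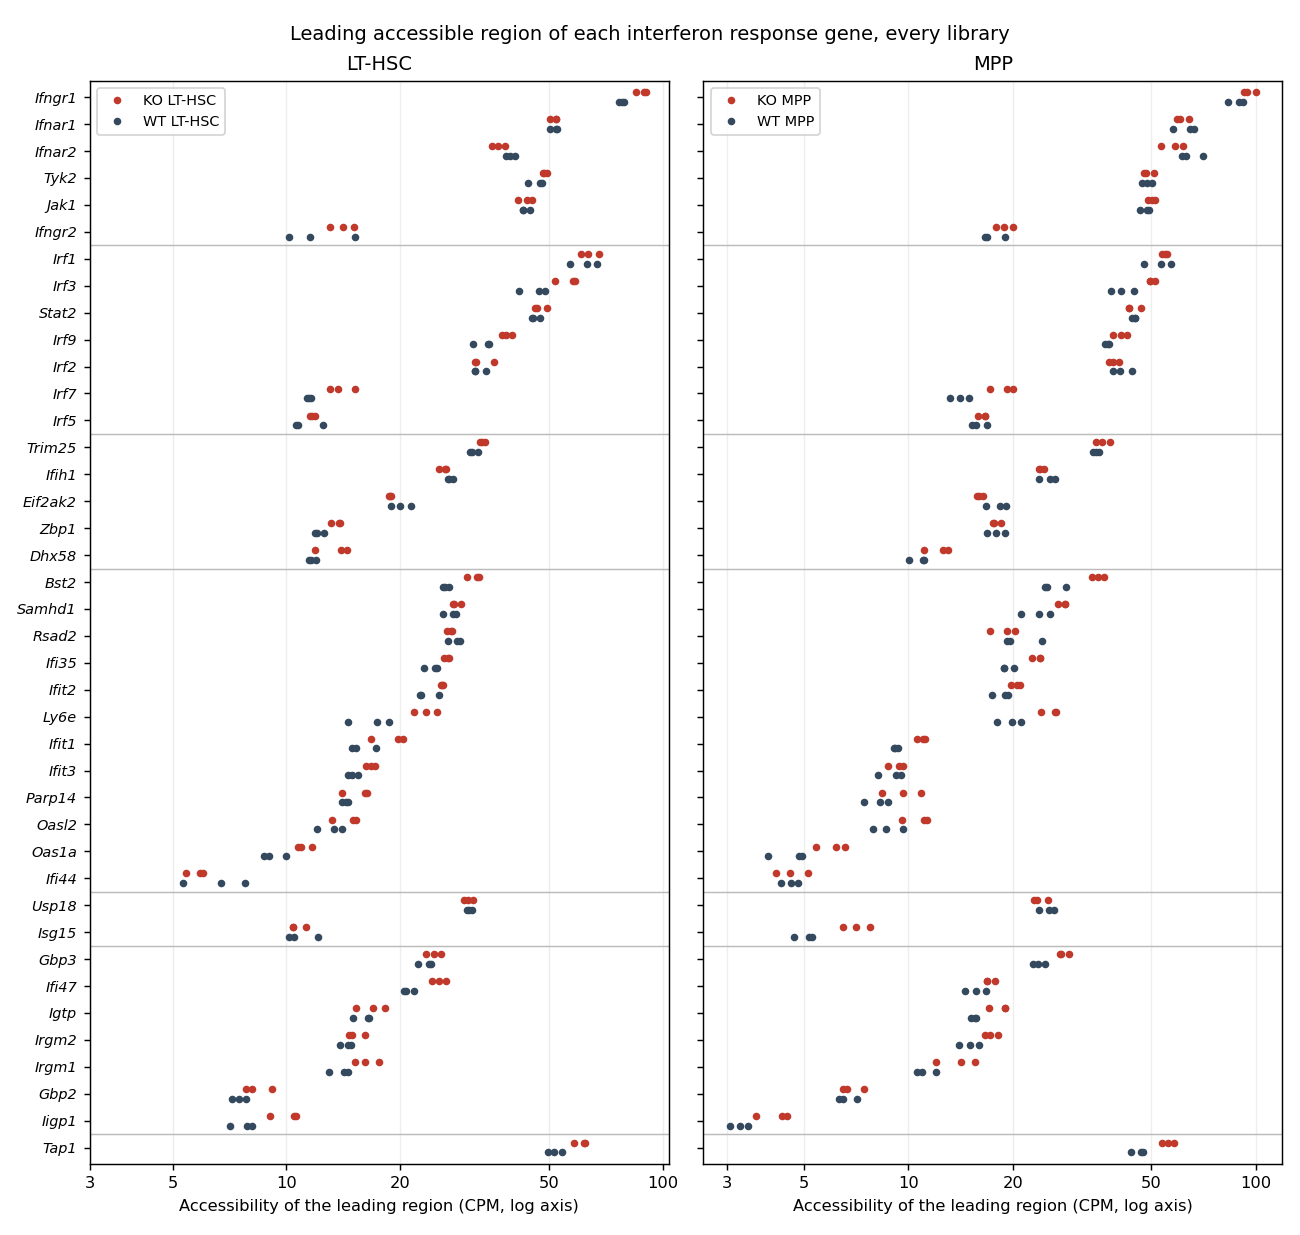
CPM (log axis) of the leading region of each of the 40 members with a region, by library, in LT-HSC (left) and MPP (right), grouped by role; red points are KO and dark points WT. Leading regions, not corrected for length, run from a mean of 5.39 CPM at Ifi44 to 87.5 CPM at Ifngr1.

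The antiviral effectors with a region, 12 genes, held 82 regions, from 1 at Ifit1 to 19 at Ly6e. Of these, 8 (9.76%) were higher and 1 lower in KO LT-HSC, and 10 (12.2%) higher and 1 lower in KO MPP. Over all regions, 3.28% were higher in LT-HSC and 5.08% in MPP. Bst2, which encodes tetherin, a membrane protein that holds budding virus at the cell surface, had 35.1, 33.7 and 36.6 CPM in KO MPP, against 28.5, 25.0 and 24.8 CPM in WT MPP at the start site that holds its ISRE cores (chr8:71537282-71537742). This was the lowest adjusted p among all member regions in either KO comparison (log2 fold 0.43 ± 0.07, adjusted p = 0.000224, kept in 6 of 6), and it was kept under every alternative tried. In LT-HSC, Bst2 had 30.1, 32.1 and 32.5 CPM in KO LT-HSC, against 26.4, 26.0 and 27.0 CPM in WT LT-HSC, again with the groups apart (log2 fold 0.25 ± 0.07, adjusted p = 0.0292, kept in 2 of 6). For Bst2, the LT-HSC fold of 0.25 became 0.16 (adjusted p = 0.153) with the loess offset.

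Oas1a, an oligoadenylate synthetase that activates RNase L, had 5.41, 6.17 and 6.58 CPM in KO MPP, against 4.84, 3.94 and 4.94 CPM in WT MPP at its start (chr5:120907360-120907795), higher in every KO library (log2 fold 0.43 ± 0.11, adjusted p = 0.0165, kept in 3 of 6). In LT-HSC it had 10.95, 10.7 and 11.7 CPM in KO LT-HSC, against 9.003, 8.71 and 9.96 CPM in WT LT-HSC, and the difference did not pass (log2 fold 0.27 ± 0.10, adjusted p = 0.127). Ifi35, an interferon-induced leucine zipper protein, had 22.8, 24.0 and 24.0 CPM in KO MPP, against 20.2, 18.9 and 18.9 CPM in WT MPP at its start (chr11:101448192-101448664), with the groups apart (log2 fold 0.29 ± 0.07, adjusted p = 0.0075, kept in 6 of 6). Its LT-HSC libraries had 26.9, 27.1 and 26.2 CPM in KO LT-HSC, against 23.3, 25.1 and 24.8 CPM in WT LT-HSC and did not pass (log2 fold 0.13 ± 0.07, adjusted p = 0.274). Genes of the Oas family have close copies, so the value of Oas1a may include reads of a relative.

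Samhd1, which breaks down deoxynucleotides and restricts retroviruses, had a region 3478 bp inside its start (chr2:157131174-157131618) with 5.04, 6.33 and 5.74 CPM in KO LT-HSC, against 3.61, 3.79 and 3.13 CPM in WT LT-HSC (log2 fold 0.69 ± 0.14, adjusted p = 0.00359, kept in 6 of 6). This call was kept under every alternative tried. In MPP the region had 3.03, 4.59 and 3.72 CPM in KO MPP, against 2.53, 2.46 and 2.81 CPM in WT MPP and was also higher (log2 fold 0.57 ± 0.15, adjusted p = 0.0136, kept in 4 of 6). Further inside, chr2:157129757-157130258 (log2 fold 0.42 ± 0.12, adjusted p = 0.0327, kept in 2 of 6) and chr2:157116908-157117384 (log2 fold 0.63 ± 0.18, adjusted p = 0.0387, kept in 2 of 6) were higher in KO LT-HSC. The Samhd1 start site (chr2:157135033-157135438) was higher in KO MPP (log2 fold 0.24 ± 0.07, adjusted p = 0.0299, kept in 2 of 6) but not past the threshold in LT-HSC (log2 fold 0.05 ± 0.07, adjusted p = 0.754).

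Ly6e, a surface protein that blocks fusion of some viruses, had its leading region 20736 bp outside the gene (chr15:74933808-74934289). It had 21.8, 23.6 and 25.1 CPM in KO LT-HSC, against 17.4, 18.7 and 14.6 CPM in WT LT-HSC (log2 fold 0.47 ± 0.08, adjusted p = 0.0014, kept in 6 of 6). Its values in MPP were 24.2, 26.4 and 26.5 CPM in KO MPP, against 21.1, 19.8 and 18.0 CPM in WT MPP (log2 fold 0.39 ± 0.08, adjusted p = 0.00317, kept in 6 of 6). The groups were apart in both populations. A region beside it (chr15:74931569-74932017) was higher in KO in LT-HSC (log2 fold 0.56 ± 0.17, adjusted p = 0.0497, kept in 2 of 6) and in MPP (log2 fold 0.54 ± 0.13, adjusted p = 0.0106, kept in 4 of 6), and one 197 bp outside the gene (chr15:74953970-74954828) in LT-HSC (log2 fold 0.47 ± 0.12, adjusted p = 0.0218, kept in 2 of 6).

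Other effectors passed at single regions. Ifi44, an interferon-induced cytoplasmic protein, was higher in KO LT-HSC at its start (chr3:151749627-151750548), with 6.36, 6.19 and 5.39 CPM in KO LT-HSC, against 4.30, 3.90 and 4.40 CPM in WT LT-HSC (log2 fold 0.52 ± 0.14, adjusted p = 0.0237, kept in 2 of 6). For Ifi44, the LT-HSC fold of 0.52 became 0.81 (adjusted p = 0.0178) with the gene-end share as covariate. Rsad2, which encodes the antiviral enzyme viperin, was higher in KO MPP inside the gene (chr12:26452708-26453363), with 4.71, 5.33 and 6.09 CPM in KO MPP, against 3.48, 3.31 and 3.79 CPM in WT MPP (log2 fold 0.62 ± 0.15, adjusted p = 0.00969, kept in 5 of 6). Its start site, which holds an ISRE core, averaged 18.9 ± 1.56 CPM in KO MPP and 21.0 ± 2.82 CPM in WT MPP and did not pass (log2 fold -0.15 ± 0.08, adjusted p = 0.272). Ifit3, of a family that binds viral RNA, had a region 1665 bp past the gene (chr19:34590647-34591134) with 2.30, 1.80 and 3.13 CPM in KO MPP, against 1.18, 1.40 and 1.52 CPM in WT MPP (log2 fold 0.82 ± 0.21, adjusted p = 0.0146, kept in 4 of 6). In LT-HSC that Ifit3 region was near 0, at 0.138, 0.248 and 0.134 CPM in KO LT-HSC, against 0.315, 0.112 and 0.289 CPM in WT LT-HSC.

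Oasl2, a relative of the oligoadenylate synthetases, went both ways. A region 5221 bp outside it (chr5:114891230-114891705) had 1.98, 1.80 and 2.21 CPM in KO MPP, against 0.927, 1.17 and 0.812 CPM in WT MPP, the largest log2 fold change among the member calls (log2 fold 1.02 ± 0.22, adjusted p = 0.00377, kept in 6 of 6), kept under every alternative tried at a low level of accessibility. A region inside Oasl2 (chr5:114902409-114902852) had 2.31, 2.37 and 2.98 CPM in KO LT-HSC, against 2.95, 3.65 and 4.43 CPM in WT LT-HSC. The groups overlap, and it was the lower call in LT-HSC (log2 fold -0.54 ± 0.16, adjusted p = 0.0468, kept in 2 of 6). For Oasl2, the LT-HSC fold of -0.54 became -0.36 (adjusted p = 0.387) with the gene-end share as covariate. Parp14, an ADP-ribosyltransferase, had 2.53, 2.32 and 2.59 CPM in KO MPP, against 4.13, 2.90 and 3.52 CPM in WT MPP at a region inside the gene (chr16:35839660-35840112), lower in KO MPP (log2 fold -0.50 ± 0.15, adjusted p = 0.0318, kept in 1 of 6). The leading regions of Ifi44, Oasl2, Parp14 and Ifit2 passed in neither population, with 4.61 ± 0.495 CPM in KO MPP and 4.56 ± 0.250 CPM in WT MPP at Ifi44. They had 10.7 ± 0.951 CPM in KO MPP and 8.71 ± 0.862 CPM in WT MPP at Oasl2, 9.65 ± 1.24 CPM in KO MPP and 8.15 ± 0.652 CPM in WT MPP at Parp14 and 20.4 ± 0.647 CPM in KO MPP and 18.5 ± 1.03 CPM in WT MPP at Ifit2. For Ifit1 and Ifit2 no region at all passed. The Ifit1 start site, with ISRE cores, averaged 19.0 ± 1.89 CPM in KO LT-HSC and 15.9 ± 1.27 CPM in WT LT-HSC (log2 fold 0.26 ± 0.08, adjusted p = 0.0656) and 10.9 ± 0.298 CPM in KO MPP and 9.19 ± 0.128 CPM in WT MPP (log2 fold 0.25 ± 0.09, adjusted p = 0.0746), and its region also overlaps 2 relatives, Ifit1bl1 and Ifit1bl2.

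The ISG15 system held 10 regions, 1 at Isg15 and 9 at Usp18. Of these, 2 were higher in KO LT-HSC and 1 in KO MPP, and none was lower, beside 3.28% and 5.08% of all regions higher. Isg15, a ubiquitin-like protein joined to targets after interferon, differed in MPP at its only region, the start site with 3 ISRE cores (chr4:156200638-156201107). It had 6.50, 7.08 and 7.74 CPM in KO MPP, against 5.29, 4.67 and 5.18 CPM in WT MPP, with the groups apart (log2 fold 0.51 ± 0.11, adjusted p = 0.00308, kept in 6 of 6). In LT-HSC it had 10.4, 10.4 and 11.3 CPM in KO LT-HSC, against 10.5, 12.1 and 10.2 CPM in WT LT-HSC, with overlapping groups (log2 fold -0.03 ± 0.10, adjusted p = 0.896). Usp18, the protease that removes ISG15 and also dampens IFNAR2 signalling, was higher in KO LT-HSC at 2 regions outside the gene (chr6:121272488-121272933 and chr6:121241770-121242171). The nearer one had 14.8, 12.6 and 12.8 CPM in KO LT-HSC, against 10.04, 10.3 and 10.4 CPM in WT LT-HSC (log2 fold 0.39 ± 0.09, adjusted p = 0.0119, kept in 5 of 6). The other had 2.15, 2.23 and 1.83 CPM in KO LT-HSC, against 1.15, 1.40 and 1.36 CPM in WT LT-HSC (log2 fold 0.67 ± 0.18, adjusted p = 0.0272, kept in 3 of 6). The leading Usp18 region averaged 30.4 ± 0.883 CPM in KO LT-HSC and 30.6 ± 0.439 CPM in WT LT-HSC, and 23.9 ± 1.24 CPM in KO MPP and 25.1 ± 1.25 CPM in WT MPP, and passed in neither population.

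**Figure D4:**
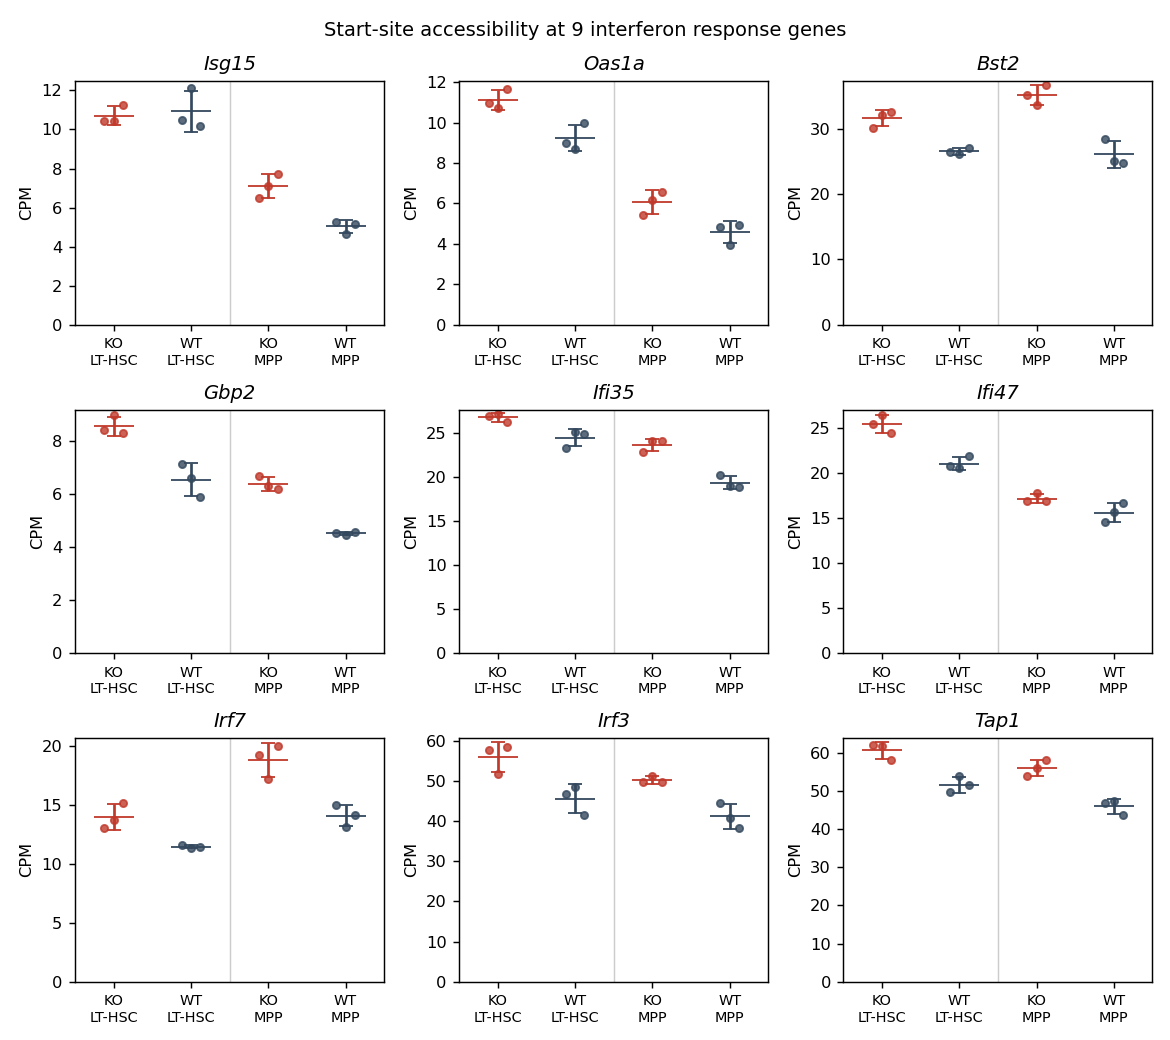
CPM at a start-site region of 9 members in KO LT-HSC, WT LT-HSC, KO MPP and WT MPP; points are libraries, horizontal bars means and error bars SD (n = 3). The 9 were picked from regions that passed as higher in KO in LT-HSC or MPP. KO MPP libraries stand above WT MPP libraries in all 9 plots, which follows largely from that choice. Of all 50 member regions near starts, 26 had every KO MPP library above every WT MPP library, and 1 had every one below. Over all tested regions at any position, the shares were 14.3% and 13.7%. Those are not a like background, since regions near starts of all genes were more often called higher in KO MPP. In LT-HSC the Isg15 libraries of KO (10.4 to 11.3 CPM) overlap those of WT (10.2 to 12.1 CPM).

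Interferon-inducible GTPases, which attack the vacuoles of intracellular microbes, held 46 regions, from 3 at Gbp3 and Igtp to 14 at Ifi47. Of these, 4 (8.70%) were higher in KO LT-HSC and 10 (21.7%) in KO MPP, and none was lower. All tested regions gave 3.28% and 5.08% higher. Gbp2, a guanylate-binding protein, had 6.65, 6.29 and 6.17 CPM in KO MPP, against 4.53, 4.46 and 4.57 CPM in WT MPP at the start-site region that holds its ISRE core (chr3:142620376-142620825). The groups were apart and the call was kept under every alternative tried (log2 fold 0.49 ± 0.11, adjusted p = 0.0039, kept in 6 of 6). In LT-HSC it had 8.39, 8.95 and 8.28 CPM in KO LT-HSC, against 7.11, 6.60 and 5.88 CPM in WT LT-HSC (log2 fold 0.39 ± 0.10, adjusted p = 0.0245, kept in 2 of 6). Gbp3, its neighbour and relative, was higher in KO MPP at its start (chr3:142560552-142561006), with 27.5, 27.4 and 29.0 CPM in KO MPP, against 23.6, 24.7 and 22.8 CPM in WT MPP (log2 fold 0.24 ± 0.07, adjusted p = 0.0253, kept in 2 of 6). The ISRE cores of Gbp3 lie outside that region, and the leading region of Gbp2, at 6.86 ± 0.531 CPM in KO MPP and 6.63 ± 0.442 CPM in WT MPP, passed in neither population.

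Irgm1, which guards the cell against its own effector GTPases, was higher in KO MPP at 2 regions near its start and 1 inside it. Over the ISRE cores (chr11:48871270-48871725) it had 12.02, 14.2 and 15.6 CPM in KO MPP, against 10.6, 10.9 and 12.04 CPM in WT MPP, with groups that overlap (log2 fold 0.33 ± 0.09, adjusted p = 0.0242, kept in 2 of 6). The region 783 bp outside the gene (chr11:48872203-48872614) had 12.9, 13.4 and 12.9 CPM in KO MPP, against 9.04, 10.3 and 11.1 CPM in WT MPP (log2 fold 0.37 ± 0.09, adjusted p = 0.00784, kept in 5 of 6). The region inside the gene (chr11:48869326-48869757) was also higher (log2 fold 0.50 ± 0.14, adjusted p = 0.0269, kept in 2 of 6). In LT-HSC the Irgm1 call was a region 5833 bp past the gene (chr11:48858993-48859412), with 4.29, 4.56 and 5.12 CPM in KO LT-HSC, against 3.41, 2.95 and 3.27 CPM in WT LT-HSC (log2 fold 0.53 ± 0.12, adjusted p = 0.011, kept in 4 of 6).

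Ifi47, an effector of the same family, was higher in KO LT-HSC at its start (chr11:49076269-49076786), with 25.4, 26.5 and 24.4 CPM in KO LT-HSC, against 20.8, 20.5 and 21.9 CPM in WT LT-HSC (log2 fold 0.27 ± 0.07, adjusted p = 0.0247, kept in 2 of 6). In MPP the start had 16.9, 17.8 and 16.9 CPM in KO MPP, against 14.6, 15.7 and 16.7 CPM in WT MPP and did not pass (log2 fold 0.14 ± 0.07, adjusted p = 0.256). Other regions of Ifi47 were higher in KO MPP: chr11:49084862-49085314 (log2 fold 0.46 ± 0.11, adjusted p = 0.00681, kept in 6 of 6), chr11:49083775-49084245 (log2 fold 0.63 ± 0.19, adjusted p = 0.037, kept in 1 of 6) and chr11:49070438-49070922 (log2 fold 0.96 ± 0.24, adjusted p = 0.0106, kept in 4 of 6). Igtp was higher in KO MPP over its ISRE core (chr11:58199332-58199784), with 19.0, 17.1 and 19.0 CPM in KO MPP, against 15.1, 15.6 and 15.5 CPM in WT MPP (log2 fold 0.25 ± 0.08, adjusted p = 0.044, kept in 0 of 6). Irgm2 was higher in KO MPP at a region 3313 bp outside the gene (chr11:58210924-58211664), with 7.82, 8.00 and 7.60 CPM in KO MPP, against 4.58, 5.42 and 6.05 CPM in WT MPP (log2 fold 0.55 ± 0.13, adjusted p = 0.00705, kept in 5 of 6). Iigp1, a founding member of the family, was higher in KO LT-HSC at its leading region (chr18:60382405-60382844), with 10.5, 10.6 and 9.04 CPM in KO LT-HSC, against 8.09, 7.84 and 7.06 CPM in WT LT-HSC (log2 fold 0.39 ± 0.10, adjusted p = 0.0257, kept in 2 of 6). Its MPP libraries had 4.32, 4.47 and 3.64 CPM in KO MPP, against 3.06, 3.27 and 3.45 CPM in WT MPP, with the groups apart and an adjusted p of 0.0747.

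Tap1, the transporter that carries peptides to MHC class I, was higher in KO in both populations at its start (chr17:34187238-34187701). It had 62.2, 61.8 and 58.1 CPM in KO LT-HSC, against 49.6, 53.9 and 51.5 CPM in WT LT-HSC (log2 fold 0.23 ± 0.06, adjusted p = 0.0175, kept in 3 of 6). For Tap1, the LT-HSC fold of 0.23 became 0.13 (adjusted p = 0.143) with the loess offset. The MPP libraries had 53.8, 56.0 and 58.2 CPM in KO MPP, against 46.8, 47.5 and 43.8 CPM in WT MPP (log2 fold 0.28 ± 0.06, adjusted p = 0.00256, kept in 6 of 6). KO and WT did not overlap in either. The region also overlaps Psmb9, an immunoproteasome subunit that starts beside Tap1, so both genes share this signal.

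Whether the KO effect differed between MPP and LT-HSC was tested directly. None of the 408 member regions passed in edgeR, against 15 of all 186373 regions (0.00805%), and none passed in DESeq2, which gave no adjusted p to 204 of the 408 member regions and to 122854 of all regions. At an unadjusted p under 0.05 there were 22 member regions (5.39%), against 7.57% of all regions. The 3 lowest p-values belonged to Isg15 (MPP minus LT-HSC, 0.54 ± 0.14 on the log2 scale, adjusted p = 0.359), the Irf1 region 11590 bp outside the gene (-0.73 ± 0.22, adjusted p = 0.426) and the Dhx58 region chr11:100702956-100703701 (0.61 ± 0.19, adjusted p = 0.452). The Dhx58 region had 2.89, 3.01 and 3.52 CPM in KO LT-HSC, against 4.07, 4.33 and 4.02 CPM in WT LT-HSC, and 3.46, 4.15 and 3.48 CPM in KO MPP, against 3.11, 3.48 and 3.08 CPM in WT MPP, and passed in neither population. A call in 1 population alone, as at Isg15 or Oas1a, is therefore not shown to be particular to it.

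More member regions passed between the populations than between the genotypes. In KO, 170 of 408 member regions were higher in MPP than in LT-HSC and 109 lower, against 33.3% and 34.4% of all regions. In WT, 180 were higher and 112 lower, against 34.6% and 35.1%. Both genotypes gave the same direction at 250 member regions, 154 higher and 96 lower in MPP. The share of all tested regions that did so is not given, so this count shows nothing particular to the members. At the leading regions, the roles parted. Those of Ifnar1, Ifnar2, Ifngr1, Ifngr2 and Jak1 were higher in MPP in both genotypes, while that of Tyk2 passed in neither. Of the 12 leading regions of antiviral effectors, 9 were lower in MPP in KO and 10 in WT. Counts over all regions went otherwise. Of the 82 effector regions, 33 were higher and 26 lower in MPP in KO, and 39 and 26 in WT. Jak1 had 9 regions higher and 20 lower in MPP in KO, and 13 and 20 in WT. So a leading region does not stand for the other regions of its gene or role.

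Among the receptors, Ifnar2 had 61.9, 58.6 and 53.4 CPM in KO MPP, against 38.04, 35.3 and 36.6 CPM in KO LT-HSC, and 63.1, 70.4 and 61.5 CPM in WT MPP, against 38.4, 40.4 and 39.2 CPM in WT LT-HSC. Its log2 fold change of MPP over LT-HSC was 0.66 ± 0.06 in KO and 0.73 ± 0.06 in WT. Among the effectors, Oas1a was lower in MPP, with log2 folds of -0.87 ± 0.11 in KO and -1.02 ± 0.11 in WT. Ifit1 (-0.80 ± 0.09 in KO and -0.79 ± 0.09 in WT) and Ifit3 (-0.85 ± 0.09 and -0.75 ± 0.09) were also lower. So were Isg15 (-0.58 ± 0.10 in KO and -1.12 ± 0.10 in WT) and the GTPase Iigp1 (-1.28 ± 0.11 and -1.24 ± 0.12). Leading regions of transcription factors did not go one way. Irf5 (0.48 ± 0.08 in KO and 0.50 ± 0.08 in WT) and Irf7 (0.43 ± 0.08 and 0.29 ± 0.09) were higher in MPP. So was Irf2 (0.24 ± 0.07 and 0.34 ± 0.07), while Irf1 was lower (-0.22 ± 0.07 and -0.24 ± 0.07). Of all 22 Irf1 regions, however, 14 were higher and 4 lower in MPP in KO, and 16 and 3 in WT.

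**Figure D5:**
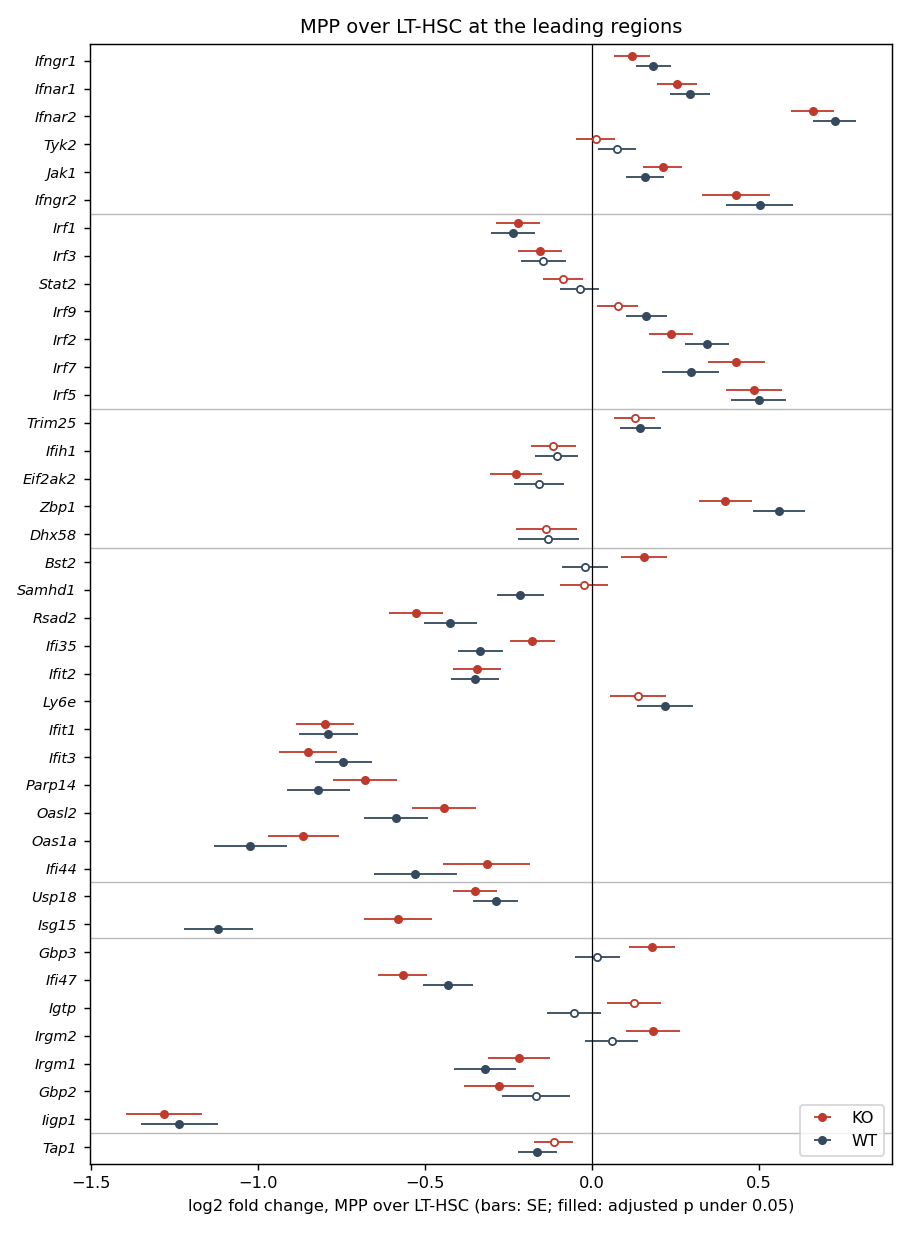
Log2 fold change of MPP over LT-HSC at the leading region of each member, in KO (red) and WT (dark), with SE bars; filled points have an adjusted p under 0.05. Receptors and Jak1 lie to the right of 0, and most antiviral effectors to the left, in both genotypes.

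The most population-dependent member regions lay inside or outside genes, away from start sites. Higher in MPP were regions of Irf2 (chr8:46697959-46698384 with 3.93 ± 0.33 in KO and 3.67 ± 0.30 in WT, and chr8:46886197-46886606 with 3.23 ± 0.24 and 2.93 ± 0.22), Tyk2 (3.21 ± 0.19 and 2.82 ± 0.18) and Bst2 (2.62 ± 0.18 and 2.80 ± 0.17). The Ifit3 region 1665 bp past its gene (3.77 ± 0.33 and 2.49 ± 0.31), the Ifi47 region 5665 bp outside (3.32 ± 0.34 and 2.72 ± 0.37), a region inside Rsad2 (2.45 ± 0.36 and 2.65 ± 0.36) and a Parp14 region completed the 8 largest. The Parp14 region is given by its levels, since 2 libraries had no count in it: 0.350, 0.395 and 0.809 CPM in KO MPP, against 0.0550, 0 and 0 CPM in KO LT-HSC, and 0.426, 0.208 and 0.406 CPM in WT MPP, against 0.0860, 0.0843 and 0.0868 CPM in WT LT-HSC. Lower in MPP was an Irf2 region 41114 bp past the gene (chr8:46888572-46889024). It had 1.24, 1.33 and 0.836 CPM in KO MPP, against 11.97, 11.2 and 10.6 CPM in KO LT-HSC, with log2 folds of -3.32 ± 0.16 in KO and -3.19 ± 0.15 in WT. An Ifnar2 region 35601 bp outside its gene was lower in MPP, at -2.68 ± 0.14 in KO and -2.98 ± 0.14 in WT, although the leading Ifnar2 region was higher. Inside Ifih1, 4 regions were lower in MPP, with log2 folds from -3.12 to -2.07 over both genotypes, as were 1 inside Ifit2 (-1.98 ± 0.15 and -2.33 ± 0.15) and 1 more inside Irf2 (-2.25 ± 0.26 and -1.96 ± 0.25).

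A wider list of 76 other interferon pathway genes was read in the same way. It had regions at 72 genes, 608 in all. In LT-HSC, 22 regions were higher in KO, in 19 genes, and 3 were lower, in 3 genes, which is 3.62% and 0.493%, near the background of 3.28% for higher regions. In MPP, 53 were higher, in 35 genes, and 18 lower, in 15 genes, or 8.72% and 2.96%, beside 5.08% and 3.61% of all regions. The medians of the log2 fold, 0.06 in both populations, stood beside 0.08 for the members. Passing in both populations were regions of Ptpn2, a phosphatase that dampens JAK and STAT signalling (0.74 ± 0.12, adjusted p = 0.000676 in LT-HSC, 0.37 ± 0.11, adjusted p = 0.0393 in MPP), of Stat3 (0.60 ± 0.11, adjusted p = 0.00201 in LT-HSC, 0.31 ± 0.10, adjusted p = 0.0473 in MPP) and of Mavs, the adaptor of the RNA sensors (0.42 ± 0.09, adjusted p = 0.00444 in LT-HSC, 0.36 ± 0.09, adjusted p = 0.00814 in MPP). Jak2, a kinase of the type II receptor, had the lowest adjusted p of the list in MPP (0.94 ± 0.13, adjusted p = 5.44e-05). Lower in KO MPP were regions of Ifitm3, which blocks viral entry (-0.43 ± 0.07, adjusted p = 0.00024), and of the GTPase Gbp9 (-0.81 ± 0.14, adjusted p = 0.000409), so the wider list did not go one way. These 6 genes were picked for low adjusted p after the values were seen.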

How the data were processed

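The members, lists and tests were chosen with earlier results of these data known. The authors deposited 1 table of raw counts per region of a union set for 12 libraries, without normalization. Tools in the submitters' processing notes are cutadapt, Bowtie2, featureCounts, MACS2 2.1.1 and DESeq2 1.22.1, on GRCm38. Settings are not stated there. Regions were placed on RefSeq GRCm38.p6 genes, a table without exons.

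Differences were tested with edgeR 4.0.16 (two-sided quasi-likelihood F test, TMM, filterByExpr, 1 mean per group over 12 libraries). Of the regions, 186373 were tested and 1889 left out. P-values were adjusted by Benjamini-Hochberg over all tested regions, with a threshold of 0.05. The SE came from the F statistic. The model was tested on simulated data.

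Named were all member regions past the threshold in a KO comparison, the leading regions of receptors, kinases and transcription factors, the 3 interaction p-values that were lowest, and the 8 largest differences per direction between populations, with other leading regions added. Alternatives were DESeq2 1.42.0, RLE, total-count and loess scaling, other filters, the compared groups alone, the gene-end share as covariate, a replicate block and leaving out each library. Assignment within 1 kb was a further one, which changed the set of member regions and not the fits. A marker gene is not reported here.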

Additional observations from a re-analysis of the deposited data

How the results depend on the processing

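Counts moved by over 1.5 times are given first. In LT-HSC, 34 member regions were higher in KO and 1 lower. Higher regions numbered 10 with the gene-end share as covariate, 16 with a loess offset, 14 with total-count scaling and 20 when only regions within 1 kb of a gene body were assigned. Lower regions numbered 3 with a filter of 1 CPM in 3 libraries or with total-count scaling, 4 with the loess offset, and 0 with DESeq2, with the compared groups alone or with the covariate. Over all regions, the covariate left 1864 calls of 8845. In MPP, the covariate left 17 of 42 higher regions, 0 of 3 lower ones and 5612 of 16207 calls over all regions, while lower regions numbered 1 with DESeq2 and 6 with the loess offset. Between populations, the covariate left 86128 of 130008 calls in WT, 69 of 112 lower member regions in WT and 60 of 109 in KO. The tighter assignment left 74 of 180 higher member regions in WT and 69 of 170 in KO. Calls of the difference between the KO effects, 15 over all regions, numbered 63 with DESeq2, 24 with the covariate, 32 with the loess offset and 27 with total-count scaling. The share of higher calls was 100% among the 15 and 58.7%, 75.0%, 81.2% and 88.9% under these alternatives in turn. Why these counts moved was not tested.

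Leaving out 1 library at a time gave 14 to 23 higher and 0 to 1 lower member regions in LT-HSC and 3408 to 6604 calls over all regions. In MPP it gave 16 to 42, 0 to 4 and 6375 to 14170, and for the difference between the KO effects 0 to 31 over all regions, with 0 member regions throughout. Between populations the ranges were 155 to 159 higher, 95 to 102 lower and 116552 to 120458 in all in KO, and 166 to 181, 99 to 114 and 121979 to 127171 in WT.

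The direction turned at leading regions that passed in no setting and whose log2 fold was near 0. In LT-HSC, Jak1 gave -0.0287 with the filter of 1 CPM, -0.0077 with the compared groups alone, -0.0308 with the covariate, -0.0938 with the loess offset, -0.0526 with total counts and -0.0227 to 0.0399 without single libraries. Irf5 gave -0.0104 with the covariate, -0.0152 with the loess offset and -0.00482 with total counts. Irf2 gave -0.00826 with the filter of 1 CPM, -0.0671 with the loess offset, -0.032 with total counts and -0.0248 to 0.0595 without single libraries. Tyk2 gave -0.0306 with the loess offset, and Stat2 gave -0.0589 with it and -0.0186 with total counts. Irf1 gave -0.0734 with the covariate, -0.0658 with the loess offset, -0.019 with total counts and -0.022 to 0.094 without single libraries. Ifnar1 gave 6.08e-05 with DESeq2, 0.000129 with RLE scaling, 0.00242 with no filter and -0.0226 to 0.018 without single libraries. In MPP, Irf5 gave -0.0268 with the covariate. Tyk2 gave -0.0106 with the filter of 1 CPM, -0.0476 with the covariate, -0.0522 with the loess offset, -0.0252 with total counts and -0.0222 to 0.0308 without single libraries. Irf1 gave -0.0615 with the covariate, -0.00538 with the loess offset and -0.0127 to 0.114 without single libraries, and Stat2 gave -0.0472 to 0.0073 without single libraries.

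The labels do not say that replicate numbers pair the samples, and not every correlation of deviations was over 0.1. Libraries with the same number had correlations of -0.037 to 0.033 between KO and WT. Between MPP and LT-HSC of 1 genotype they had 0.054 to 0.11, against -0.078 to -0.0063 for different numbers, so each library went best with its own number there, a hint from the data and not from the design. With a replicate block, the difference between the KO effects passed at 48 regions over all regions instead of 15, of which 60.4% were higher, and no other count moved by over 1.5 times. Replicates of 3 per group, and levels under 1 CPM at several distal regions, limit the precision.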

Other observations

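The loci of Mx1 and Mx2, dynamin-like antiviral GTPases, lie on chromosome 16 and are listed in RefSeq GRCm38.p6 as transcribed pseudogenes. Accessible regions were found there, 3 at Mx1 and 4 at Mx2, and none passed in KO against WT in either population. The Mx1 region chr16:97447345-97447813 had 6.88, 5.66 and 6.64 CPM in KO LT-HSC, against 8.03, 6.77 and 5.12 CPM in WT LT-HSC, and 2.14, 2.25 and 1.51 CPM in KO MPP, against 1.98, 1.88 and 1.79 CPM in WT MPP. At Mx2, chr16:97534917-97535391 had 20.5, 20.4 and 20.9 CPM in KO LT-HSC, against 19.3, 19.8 and 21.2 CPM in WT LT-HSC, and 13.8, 13.9 and 12.6 CPM in KO MPP, against 12.3, 12.3 and 13.8 CPM in WT MPP. Another Mx2 region, chr16:97535885-97536286, had 17.7, 14.5 and 16.8 CPM in KO LT-HSC, against 12.2, 15.3 and 13.7 CPM in WT LT-HSC, and 12.6, 11.03 and 11.99 CPM in KO MPP, against 9.45, 11.1 and 10.8 CPM in WT MPP. The groups overlap at the Mx1 region in both populations.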
